A study of Rattus norvegicus with 9 samples.

Results

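The genes described here are the 10 chosen genes of fatty acid and triglyceride synthesis on the array, Srebf1, Fasn, Acaca, Acly, Scd, Elovl6, Me1, Gpam, Dgat1 and Dgat2. They were found by gene symbol in the platform annotation, which gave 17 probe sets for 10 of the 14217 genes named. Their transcripts were measured in pancreatic islets of male Zucker Diabetic Fatty (ZDF) rats, all fa/fa, a genotype that disables the leptin receptor, and all fed the Purina 5008 diet. The treated group had received rosiglitazone, an agonist of the nuclear receptor PPARγ, from week 5 to week 9 of age as powdered Avandia tablets in the diet at 3 mg/kg body weight, and its islets were taken at 9 weeks. The withdrawal group had received the drug over the same weeks, and its islets were taken at 11 weeks, 2 weeks after the drug was stopped. The untreated group had no drug, and its islets were taken at 13 weeks. Each group had 3 arrays, labelled as biological replicates, and the labels do not say how many rats gave islets to an array. The age differed between all groups, so drug and age cannot be told apart in any of the 3 comparisons, and no lean or younger untreated rats were compared here.

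De novo lipogenesis makes fatty acids from carbohydrate. Citrate leaves the mitochondrion and is split to acetyl-CoA, acetyl-CoA carboxylase makes malonyl-CoA, and fatty acid synthase builds palmitate with reducing power from NADPH. Elongases and desaturases lengthen and desaturate the product, and acyltransferases join it to glycerol, ending in triglyceride. SREBP-1c, a product of Srebf1, is a transcription factor that insulin and the liver X receptors induce and that activates many genes of the pathway in liver. In the islets of ZDF rats, triglyceride accumulates as diabetes develops.

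Islet RNA was recognisable in all arrays. The beta cell marker list (7 genes on the array) averaged 11.88 to 12.04 log2 units in treated arrays, 11.15 to 11.36 in withdrawal arrays and 11.35 to 11.64 in untreated arrays. Acinar transcripts were also bright, at 13.24 to 13.52 over the 9 arrays, so exocrine tissue was present in all groups. The list of the other islet hormone cells (5 genes on the array) averaged 11.41 to 11.77 in treated, 10.33 to 10.65 in withdrawal and 10.47 to 10.78 in untreated arrays. On both scales 3 of its 5 genes (Sst, Ppy and Pyy) were called higher in treated than untreated islets. Also on both scales 4 of 5, with Gcg, were lower in withdrawal than treated islets. Of the 7 beta cell genes, 3 were called higher in treated than untreated islets as deposited, and 0 after quantile normalization. In withdrawal against treated islets 4 were lower as deposited, and 3 after quantile normalization. Over all tested probe sets 20.9% as deposited and 7.75% after quantile normalization were called higher in treated than untreated islets. For lower in withdrawal than treated islets these shares were 32.6% and 14.6%. The macrophage list ran from 5.94 to 7.33 in treated, 7.16 to 7.21 in withdrawal and 6.57 to 6.65 in untreated arrays. In the same order, the stellate and fibroblast list ran from 9.29 to 10.76, 10.09 to 10.39 and 9.63 to 10.13. The duct list ran from 8.63 to 9.88, 8.79 to 9.01 and 8.74 to 9.07. The endothelial list ran from 8.23 to 8.95, 8.03 to 8.30 and 8.29 to 8.68. Of the 6 stellate and fibroblast genes, 5 were called higher in withdrawal than treated islets after quantile normalization and 0 as deposited. Over all probe sets these shares were 14.5% and 11.2%. The part of these lists in the results on lipogenic genes was not tested, and in bulk RNA fewer cells of a type and less RNA per cell cannot be told apart. The deposited log2 values also spread more widely on treated arrays: the slope of an array against the mean of the 9 was 1.03 to 1.12 for treated, 0.933 to 0.976 for withdrawal and 0.941 to 1.01 for untreated arrays, with treated replicate 1 the steepest. Bright genes tended to read higher in treated arrays, and the median difference of all tested probe sets was 0.16 for treated minus untreated and -0.19 for withdrawal minus treated. Quantile normalization, which gives every array the same distribution, brought these medians to 0.02 and -0.03, and its values are given beside the deposited ones below.

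Of the 17 probe sets, 14 were bright enough to be tested, representing 9 of the 10 genes. Both probe sets of Gpam and the dimmer one of Acaca were in the dimmest 33.3% of all probe sets, which were not tested. The dimmest tested probe set of these genes averaged 5.30 and the brightest untested one 4.93. Calls below are from limma at a Benjamini-Hochberg adjusted p under 0.05 over the 20695 tested probe sets. A gene is represented by its brightest probe set, and differences are in log2 units, first group minus second, with their standard errors and n = 3 arrays a group. Levels are not compared between genes.

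Srebf1 and Scd were the genes called in the same direction on both scales, and in opposite directions to each other, so their promoter windows are shown. They come from RefSeq on assembly GRCr8, 250 bases before to 50 bases after a transcript start, and are written 5′ to 3′ on the minus strand, where both genes lie. Capitals mark matches to the CCAAT box, CCAAT, or the GC box, GGGCGG, on either strand. The E-box CACGTG and the sterol regulatory element core TCACNCCAC were also searched.
Srebf1, first start (chr10:45529115-45529414): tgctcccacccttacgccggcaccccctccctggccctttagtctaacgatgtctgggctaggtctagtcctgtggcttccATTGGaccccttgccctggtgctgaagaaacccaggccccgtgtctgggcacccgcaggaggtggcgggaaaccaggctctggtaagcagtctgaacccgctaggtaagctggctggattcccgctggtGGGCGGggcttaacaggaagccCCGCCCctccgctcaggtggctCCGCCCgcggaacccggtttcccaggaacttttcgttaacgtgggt
Srebf1, second start (chr10:45518961-45519260): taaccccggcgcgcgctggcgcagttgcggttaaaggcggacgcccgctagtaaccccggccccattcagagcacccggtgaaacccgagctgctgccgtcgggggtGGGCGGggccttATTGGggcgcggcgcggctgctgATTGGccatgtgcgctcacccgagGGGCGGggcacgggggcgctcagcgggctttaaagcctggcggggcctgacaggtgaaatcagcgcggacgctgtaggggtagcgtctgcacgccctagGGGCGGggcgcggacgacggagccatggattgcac
Scd (chr1:253231682-253231981): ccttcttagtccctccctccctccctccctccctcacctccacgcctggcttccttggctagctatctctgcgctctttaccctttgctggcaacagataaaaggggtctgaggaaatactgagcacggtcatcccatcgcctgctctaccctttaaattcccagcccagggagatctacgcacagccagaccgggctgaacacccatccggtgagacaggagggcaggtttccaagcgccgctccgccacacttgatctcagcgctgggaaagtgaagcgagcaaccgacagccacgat
The starts of the Srebf1 windows lie 10154 bases apart. The first window held 1 CCAAT box and 3 GC boxes, and the second held 2 CCAAT boxes and 3 GC boxes. The Scd window held neither. Of 33469 windows of the same length, 37.5% held a CCAAT box and 33.1% a GC box, so these letters are common. Windows were matched for 5 of the 10 genes. Acly had 1 CCAAT box and 3 GC boxes, Me1 had 5 GC boxes and Gpam had 1 CCAAT box. None of the 6 windows of these genes held the E-box, found in 6.42% of all windows, or the sterol regulatory element core, found in 1.12%, which says only that these letters are not in these windows.

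Srebf1, the transcriptional activator of the pathway, was higher in treated islets than in either other group. Its representing probe set (1388426_at) read 8.22, 8.27 and 8.06 in treated arrays, 7.47, 7.46 and 7.49 in withdrawal arrays and 7.43, 7.42 and 7.50 in untreated arrays. Every treated array lay above every other array, and the withdrawal and untreated arrays overlapped. Treated islets exceeded untreated islets by 0.73 ± 0.11, or 1.66-fold (limma adjusted p = 0.00212), against a median of 0.27 among probe sets in the same brightness decile. After quantile normalization the difference was 0.43 (adjusted p = 0.0214). Withdrawal islets were lower than treated islets by -0.71 ± 0.11 (adjusted p = 0.00118, decile median -0.40), and by -0.34 after quantile normalization (adjusted p = 0.0342). Withdrawal minus untreated was 0.02, with a 95% interval from -0.22 to 0.27.
The marker lists of the beta cells and of the other islet hormone cells also had every treated array above every other array. Their part in the Srebf1 result was not tested. Both Srebf1 calls held in 9 of 9 fits that each left out 1 array, as deposited. After quantile normalization treated minus untreated was called in 5 of 9 such fits, with an adjusted p of up to 0.0725 and losses without treated replicate 2 or any untreated array. Withdrawal minus treated was called in 3 of 9, with an adjusted p of up to 0.0975, and was lost without treated replicate 2 or 3, any withdrawal array or untreated replicate 3. The other Srebf1 probe set (1371104_at) did not pass in any comparison. It read 6.20 in treated replicate 1 and 6.81 in treated replicates 2 and 3, around 6.34 to 6.45 in withdrawal arrays and 6.42 to 6.54 in untreated arrays. Which Srebf1 transcripts each probe set detects is not given in the sources used here.

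**Figure D1:**
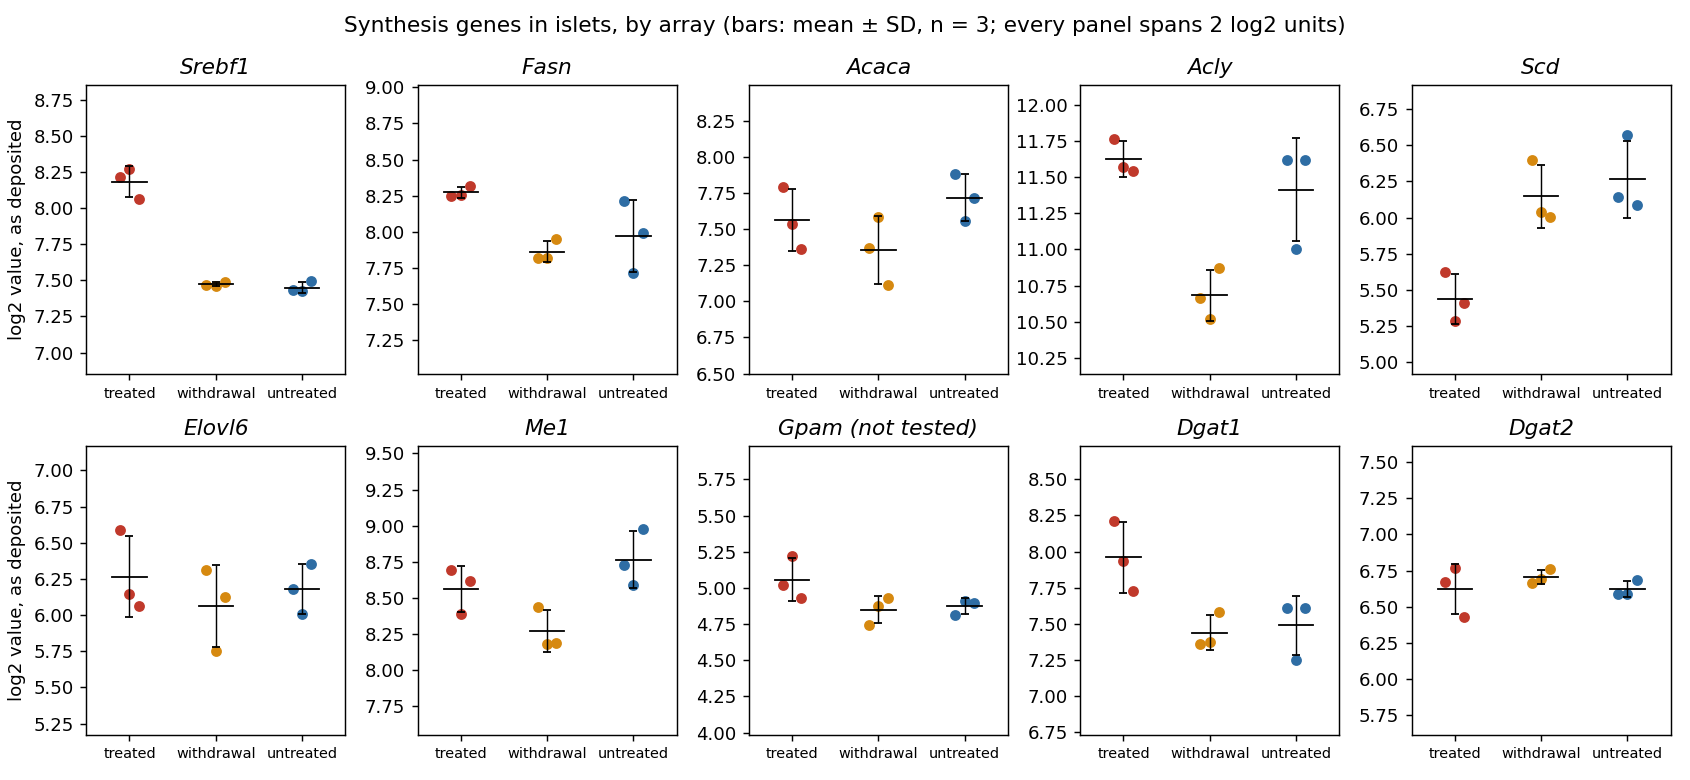
Log2 values as deposited (vertical axis, each panel spanning 2 log2 units) of the representing probe set of each gene in the 3 arrays of each group, as points, with horizontal lines for group means and bars for ± 1 SD. Treated arrays were the highest for Srebf1 (8.06 to 8.27) and the lowest for Scd (5.28 to 5.62), while Acly was lowest in withdrawal arrays (10.52 to 10.87).

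Acly, ATP citrate lyase, which makes cytosolic acetyl-CoA from citrate, read lowest after withdrawal. It was 11.77, 11.57 and 11.54 in treated, 10.66, 10.52 and 10.87 in withdrawal and 11.62, 11.01 and 11.62 in untreated arrays. The withdrawal arrays lay below all others, and treated and untreated arrays overlapped. Withdrawal was lower than treated by -0.94 ± 0.17 (limma adjusted p = 0.00209), where probe sets of like brightness had a median of -0.72. After quantile normalization that difference was -0.17 (adjusted p = 0.256), so the call rests on the deposited scale. Withdrawal minus untreated was -0.73 ± 0.17 (95% interval -1.11 to -0.35), which did not pass over all probe sets (adjusted p = 0.197), and -0.51 after quantile normalization (adjusted p = 0.0815). It passed with array weights (-0.91, adjusted p = 0.000132) and in a fit without the treated arrays (adjusted p = 0.0263). Both settings called more of all probe sets in this comparison than the 33 of the main fit. Of 9 fits that left out 1 array, as deposited, it passed in 2. These were without treated replicate 1 (adjusted p = 0.0212) and without untreated replicate 2 (adjusted p = 0.0460). After quantile normalization it passed in 1 of 9. Treated minus untreated changed sign with scale, from 0.21 to -0.34, and passed on neither (adjusted p = 0.371 and 0.0528).

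Me1, cytosolic malic enzyme, a source of NADPH, had both probe sets tested. The brighter one (1370067_at) read 8.69, 8.39 and 8.62 in treated, 8.44, 8.18 and 8.19 in withdrawal and 8.73, 8.59 and 8.98 in untreated arrays. Withdrawal arrays lay below untreated arrays, by -0.49 ± 0.14 (limma adjusted p = 0.364), and the treated arrays overlapped both. The other one (1370870_at) read 9.17, 8.34 and 8.36 in treated, 7.88, 7.71 and 7.85 in withdrawal and 8.66, 8.19 and 8.76 in untreated arrays. On it withdrawal lay below both other groups, by -0.81 ± 0.22 against treated (adjusted p = 0.0117, and -0.34 with adjusted p = 0.0835 after quantile normalization) and by -0.72 ± 0.22 against untreated (adjusted p = 0.406). The brighter probe set was lower in treated than untreated islets after quantile normalization, by -0.60 (adjusted p = 0.0114, called in 9 of 9 fits that left out 1 array), and as deposited by -0.20 (adjusted p = 0.302). The other probe set gave -0.31 on that scale (adjusted p = 0.144).

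Acaca, acetyl-CoA carboxylase 1, which makes malonyl-CoA, was not called in any comparison on either scale. Its tested probe set (1370893_at) read 7.79, 7.54 and 7.36 in treated, 7.37, 7.58 and 7.11 in withdrawal and 7.88, 7.56 and 7.71 in untreated arrays, and all groups overlapped. Withdrawal minus untreated was -0.36 ± 0.16 (limma adjusted p = 0.652), and array weights brought it past the threshold at -0.37 (adjusted p = 0.0416). Array weights called many more of all probe sets in this comparison than the 33 of the main fit. Of 9 fits that left out 1 array, as deposited, it was called in 0. After quantile normalization treated arrays lay below untreated arrays, by -0.40 (adjusted p = 0.0772).
Fasn, fatty acid synthase, read 8.25, 8.26 and 8.32 in treated, 7.82, 7.82 and 7.95 in withdrawal and 8.21, 7.72 and 7.99 in untreated arrays on its brighter probe set (1367708_a_at). Treated arrays lay above all others, the nearest being untreated replicate 1. Withdrawal was lower than treated by -0.41 ± 0.14 (limma adjusted p = 0.0294), less than the median of -0.50 among probe sets of like brightness. After quantile normalization the difference was 0.01 (adjusted p = 0.969), and as deposited the call was lost without treated replicate 3 or withdrawal replicate 1 or 2 (adjusted p up to 0.0971). Treated minus untreated was 0.30 ± 0.14 (adjusted p = 0.116) and -0.03 after quantile normalization. The dimmer probe set (1367707_at) read 6.60, 7.16 and 6.68 in treated, 6.43, 6.30 and 6.53 in withdrawal and 6.60, 6.48 and 6.69 in untreated arrays, and passed in no comparison (withdrawal minus treated -0.39, adjusted p = 0.0580).

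Scd, stearoyl-CoA desaturase, which puts the first double bond into saturated fatty acids, was lower in treated islets than in both other groups. It read 5.62, 5.28 and 5.41 in treated, 6.40, 6.04 and 6.01 in withdrawal and 6.14, 6.57 and 6.08 in untreated arrays. Every treated array lay below every other array, and withdrawal and untreated arrays overlapped. Treated minus untreated was -0.83 ± 0.17, so the level was 1.77-fold higher in untreated islets (limma adjusted p = 0.00614), with a median of 0.01 among probe sets of like brightness. Withdrawal exceeded treated by 0.71 ± 0.17, or 1.63-fold (adjusted p = 0.00590). Quantile normalization gave -0.83 (adjusted p = 0.0106) and 0.69 (adjusted p = 0.0140). Withdrawal minus untreated was -0.12, with a 95% interval from -0.48 to 0.24. Both calls held in 9 of 9 fits that left out 1 array, as deposited; after quantile normalization the second was lost without withdrawal replicate 1 (adjusted p = 0.0609).
Scd is also abundant in adipocytes, so their markers stand beside it. Adipoq, which encodes the adipocyte hormone adiponectin, read 4.77, 4.95 and 4.95 in treated, 5.25, 5.18 and 5.29 in withdrawal and 5.00, 5.19 and 5.37 in untreated arrays. Lep, which encodes leptin, read 4.87, 5.06 and 5.76 in treated, 6.26, 6.04 and 5.74 in withdrawal and 5.70, 5.98 and 5.66 in untreated arrays. Their withdrawal minus treated differences passed in the direction of Scd (0.35 and 0.79, limma adjusted p = 0.0425 and 0.0124), and treated minus untreated (-0.30 and -0.55) did not pass. Fabp4 and Lpl, lipid handling genes of adipocytes and other cells, were lower after withdrawal than in treated islets as deposited (-1.19 and -0.81), and after quantile normalization their differences were -0.69 (adjusted p = 0.00854) and -0.25 (adjusted p = 0.144). On that scale Lep still passed (0.74, adjusted p = 0.0250) and Adipoq did not (0.26, adjusted p = 0.0998). Adipoq was dim, averaging 5.10 over the 9 arrays, where the brightest untested probe set of the lipogenic genes averaged 4.93. Cfd, the remaining marker of the list averaged below, had the opposite signs to Scd and was called on neither scale. As deposited it gave 0.34 for treated minus untreated and -0.16 for withdrawal minus treated. These 5 adipocyte markers averaged 6.80 to 7.10 in treated, 6.65 to 6.75 in withdrawal and 6.74 to 6.86 in untreated arrays. Plin1 and Cidec, also adipocyte markers, were counted with the related genes below and left out of this average. Both were on the array and too dim to test. The part of adipocyte RNA in the Scd result was not tested.

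**Figure D2:**
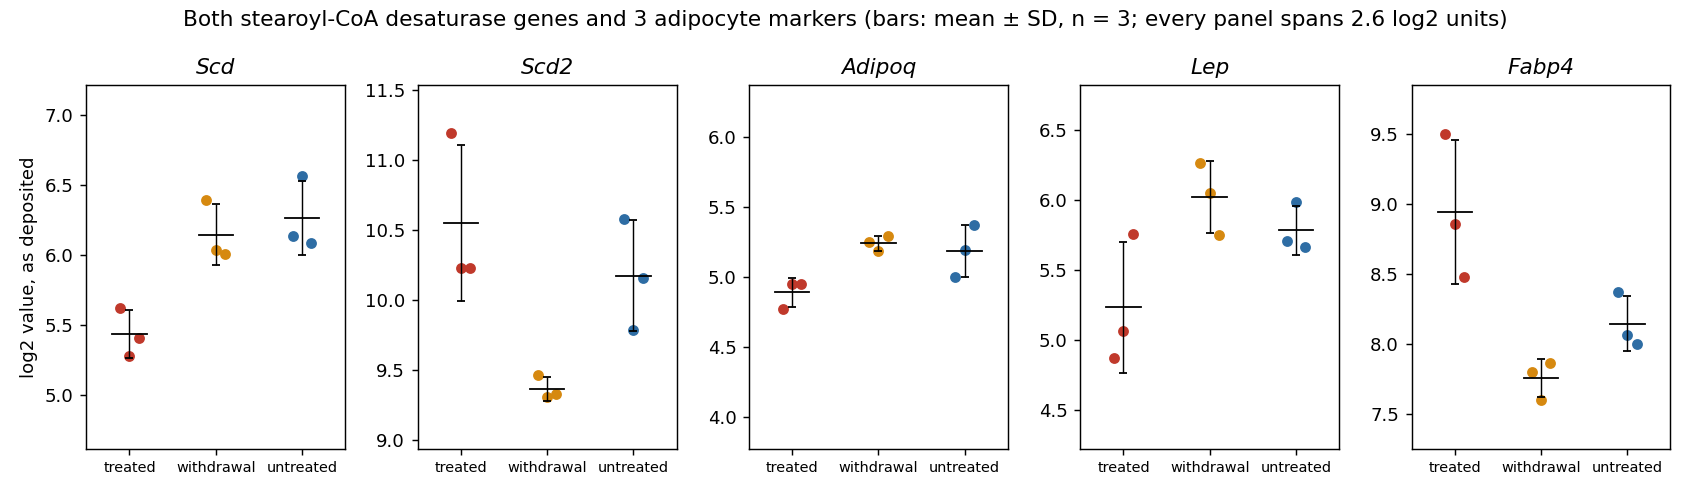
Log2 values as deposited (vertical axis) of Scd, its relative Scd2 and the adipocyte markers Adipoq, Lep and Fabp4 in the 3 arrays of each group, as points, with lines for group means and bars for ± 1 SD. Scd was lowest in the treated arrays (5.28 to 5.62), as was Adipoq (4.77 to 4.95), whereas Fabp4 was highest there (mean 8.94, against 7.75 after withdrawal and 8.14 untreated).

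Elovl6, which elongates palmitate, was not called on its brighter probe set (1388108_at), with 6.59, 6.14 and 6.07 in treated, 6.31, 5.75 and 6.13 in withdrawal and 6.18, 6.004 and 6.35 in untreated arrays. All groups overlapped. The dimmer probe set (1394401_at) read 5.67, 5.35 and 5.66 in treated, 4.92, 5.15 and 5.27 in withdrawal and 5.11, 5.25 and 5.29 in untreated arrays, and its treated arrays lay above all others. On it withdrawal was lower than treated by -0.45 ± 0.14 (limma adjusted p = 0.0214), and by -0.51 after quantile normalization (adjusted p = 0.0160). The same probe set gave 0.35 for treated minus untreated (adjusted p = 0.0789).

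Gpam, the mitochondrial acyltransferase that starts glycerolipid synthesis, was too dim to test. Its brighter probe set (1369758_at) read 5.02, 5.22 and 4.93 in treated, 4.75, 4.87 and 4.93 in withdrawal and 4.81, 4.91 and 4.90 in untreated arrays, and the other (1382986_at) ran from 3.42 to 4.01 over the 9 arrays.
Dgat1, an acyltransferase for the last step of triglyceride synthesis, read 8.21, 7.94 and 7.73 in treated, 7.36, 7.37 and 7.58 in withdrawal and 7.61, 7.25 and 7.61 in untreated arrays. The treated arrays lay above all others. Treated exceeded untreated by 0.47 ± 0.16 (limma adjusted p = 0.0417, decile median 0.27), and withdrawal was lower than treated by -0.52 ± 0.16 (adjusted p = 0.0184, decile median -0.40). After quantile normalization neither passed (0.19, adjusted p = 0.235, and -0.18, adjusted p = 0.241). The first held only without treated replicate 3, in 1 of 9 fits that left out an array (adjusted p up to 0.171), and the second was lost without withdrawal replicate 1 or 2 (adjusted p up to 0.0709).
Dgat2, the other enzyme of that step, showed no call on its brighter probe set (1391045_at), with 6.67, 6.77 and 6.43 in treated, 6.67, 6.69 and 6.76 in withdrawal and 6.59, 6.59 and 6.68 in untreated arrays. On the dimmer one (1371615_at) all withdrawal arrays, at 5.998, 5.92 and 6.11, lay above the treated arrays, at 5.57, 5.74 and 5.68, and the untreated arrays, at 5.80, 5.84 and 5.73. Withdrawal exceeded treated there by 0.34 ± 0.12 (limma adjusted p = 0.0296, and 0.31 with adjusted p = 0.0365 after quantile normalization).

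The paired probe sets of a gene differed in call mainly in withdrawal minus treated. Of the 5 genes with 2 tested probe sets, both had the same sign in 3 for treated minus untreated, in 4 for withdrawal minus untreated and in 5 for withdrawal minus treated. As deposited, both had the same call in 4 for treated minus untreated. They also did in 5 for withdrawal minus untreated, where none was called. In withdrawal minus treated 1 of the pair was called and the other was not in all 5.

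**Figure D3:**
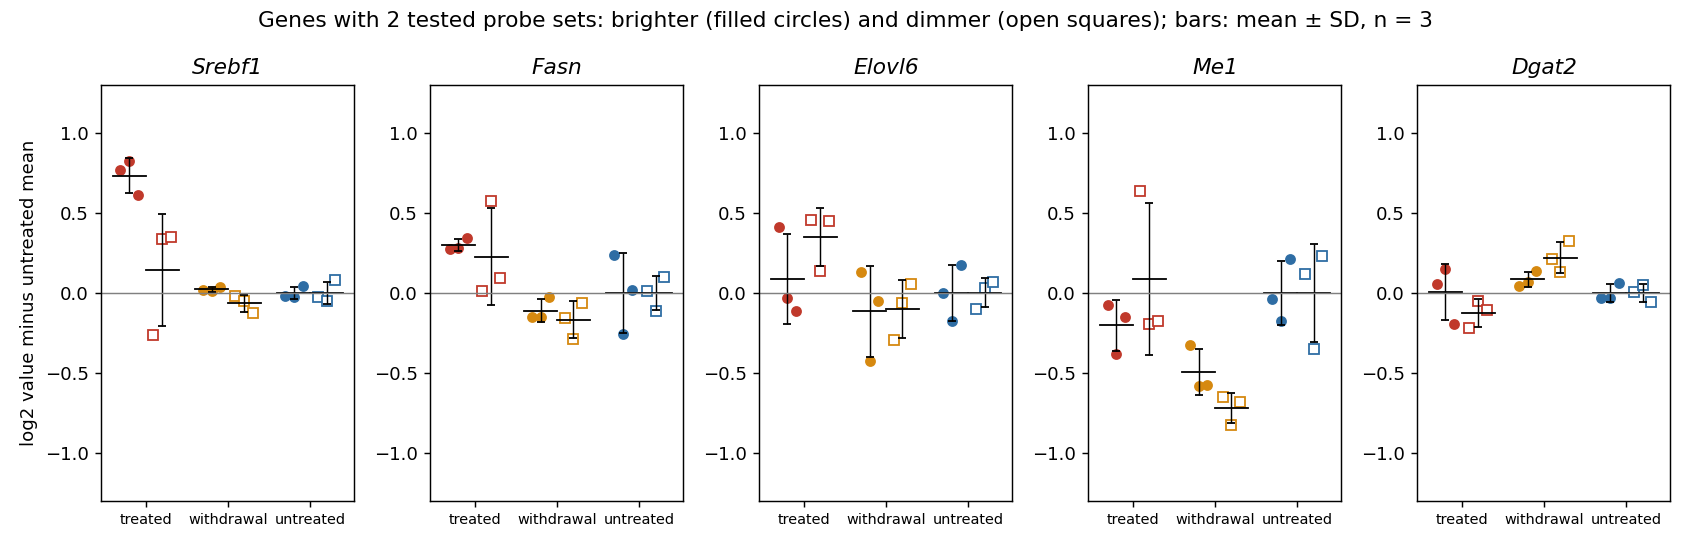
Log2 value minus the untreated mean of the same probe set (vertical axis) in each array, for the 5 genes with 2 tested probe sets, with filled circles for the brighter and open squares for the dimmer one, lines for group means and bars for ± 1 SD. Both probe sets of Me1 lay lowest after withdrawal (means -0.49 and -0.72), while for Srebf1 the treated mean was 0.73 on the brighter and 0.14 on the dimmer one.

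Among the 9 tested genes, 2 were higher in treated than untreated islets (Srebf1 and Dgat1) and 1 was lower (Scd). Over all tested probe sets 28.1% were called in this comparison, 20.9% higher and 7.24% lower. After quantile normalization 1 gene was higher (Srebf1) and 2 were lower (Scd and Me1), against 7.75% higher and 9.44% lower of all probe sets. The median difference of the 9 genes was 0.09 as deposited and -0.09 after quantile normalization, on either side of 0, where all tested probe sets had 0.16 and 0.02. Groups did not overlap for 4 of the 9 genes as deposited (Srebf1, Fasn, Scd and Dgat1), against 42.9% of all probe sets, and for 5 after quantile normalization (Srebf1, Scd, Acly, Me1 and Acaca), against 35.6%. The 3 called of 9 genes, or 33.3%, stood against 28.1% of all probe sets as deposited and 17.2% after quantile normalization, and the called genes did not share a direction on either scale.
Withdrawal minus untreated called 0 of the 9 genes with limma on either scale, where 0.159% of all probe sets were called as deposited (0.00483% higher and 0.155% lower) and 0.42% after quantile normalization (0.0338% higher and 0.387% lower). At an unadjusted p under 0.05 there were 3 as deposited (Acly, Me1 and Acaca, all lower after withdrawal) and 2 after quantile normalization (Acly and Me1). Acly and Me1 had withdrawal arrays wholly below untreated arrays on both scales, where 18% of all probe sets did not overlap as deposited and 21.4% after quantile normalization. Dgat2 had withdrawal arrays above untreated arrays after quantile normalization.
Withdrawal minus treated called 5 of the 9, with Scd higher and Srebf1, Acly, Fasn and Dgat1 lower. Over all probe sets 43.8% were called, 11.2% higher and 32.6% lower. After quantile normalization Scd was higher and Srebf1 lower, against 29.1% of all probe sets called, 14.5% higher and 14.6% lower. Groups did not overlap for the same 5 genes as deposited, against 53.9% of all probe sets, and for 3 after quantile normalization (Srebf1, Scd and Dgat2), against 45%. The median of the 9 genes was -0.29 as deposited and 0.01 after quantile normalization. Each group enters 2 of the 3 comparisons, so the calls are not independent of each other. Over the 3 groups at once, limma's moderated F test passed on both scales for Srebf1 (adjusted p = 0.00158 and 0.0274), Scd (0.00578 and 0.0122), Acly (0.00451 and 0.0169) and Me1 (0.0441 and 0.0167), and on the deposited scale alone for Dgat1 (0.0331 and 0.316). This test called 37% of all probe sets as deposited and 24.5% after quantile normalization.

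**Figure D4:**
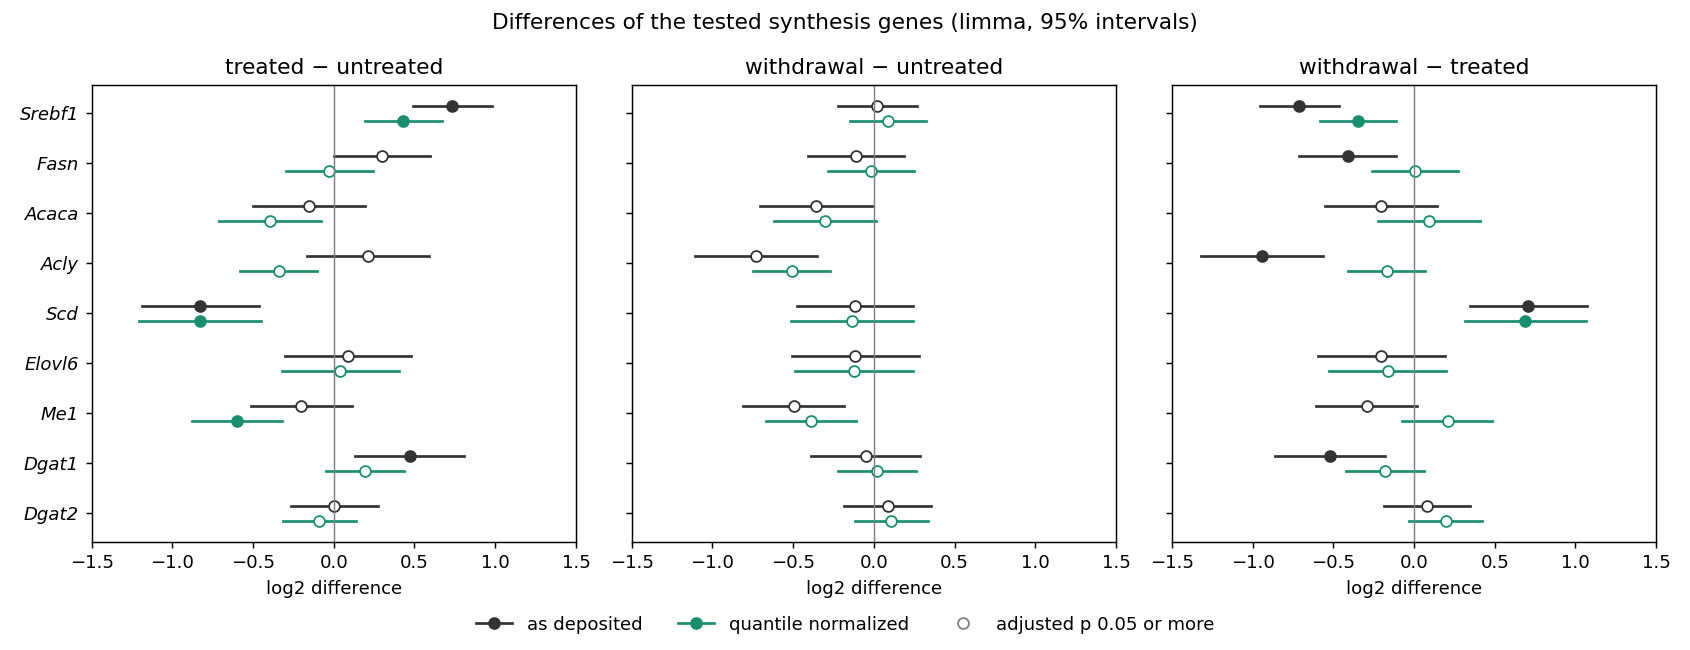
Log2 difference (horizontal axis) and 95% interval of each tested gene in the 3 comparisons, as deposited in black and after quantile normalization in green, with filled points where the adjusted p was under 0.05. Scd keeps its place on both scales (-0.83 and -0.83 for treated minus untreated), while Acly moves from 0.21 to -0.34 in that comparison.

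The wider pathway was described from 73 related genes, of which 69 were on the array and 58 were tested. In treated against untreated islets 13 were higher and 3 lower, or 27.6% called, with a median of 0.23, and after quantile normalization 4 were higher and 5 lower, or 15.5%. Both shares lie near the background of 28.1% and 17.2% over all probe sets. Called in the same direction on both scales were 7 genes. Idh2, a mitochondrial source of NADPH, was higher by 0.96 (limma adjusted p = 0.00228; 0.45 after quantile normalization), Pc, pyruvate carboxylase, which replenishes oxaloacetate for citrate, by 0.96 (0.85), Fads1, the delta-5 desaturase, by 0.85 (0.55) and Acsl4, an acyl-CoA synthetase that favours polyunsaturated fatty acids, by 0.73 (0.47). Ppargc1b, a coactivator of SREBP-1, was lower by -0.62 (adjusted p = 0.0157; -0.77 after quantile normalization). Bscl2 (0.63), Mlx (0.62) and Pgd (0.76) were called higher as deposited but not after quantile normalization.
By step, the elongases and desaturases gave 3 higher of 7 tested, and 1 after quantile normalization. Citrate, acetyl-CoA and NADPH supply gave 3 higher of 8, and then 2. The glycerolipid enzymes gave 3 higher and 1 lower of 11, and then 0 and 1, the lower gene being Lpin1, and the lipid droplet and lipolysis list gave 1 higher of 13, and then 1 lower. The regulators gave 1 higher and 2 lower of 12, and then 3 lower, the acyl-CoA synthetases 1 higher of 5 on both scales, and the partners of malonyl-CoA and fatty acid synthesis 1 higher of 2 as deposited.

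Against untreated islets, withdrawal islets had 1 related gene called lower as deposited and 3 after quantile normalization, of 58. These were 1.72% and 5.17%, where 0.159% and 0.42% of all probe sets were called. The 1 called on both scales was Mid1ip1, a partner that promotes polymerisation of acetyl-CoA carboxylase. It read 10.04, 9.68 and 9.62 in treated, 9.04, 8.90 and 9.45 in withdrawal and 10.83, 9.999 and 10.52 in untreated arrays. The withdrawal arrays were the lowest, and the difference from untreated islets was -1.32 ± 0.21 (limma adjusted p = 0.0388), or -1.15 after quantile normalization (adjusted p = 0.00455). Insig1, which retains SREBP precursors in the endoplasmic reticulum and is itself an SREBP target, read 8.58, 8.50 and 8.80 in treated, 7.60, 7.41 and 7.59 in withdrawal and 8.47, 8.13 and 8.36 in untreated arrays. Withdrawal arrays lay below all others, by -0.78 ± 0.14 against untreated (adjusted p = 0.0535, and 0.0279 after quantile normalization). G0s2, an inhibitor of adipose triglyceride lipase, followed with -0.63 (adjusted p = 0.185). A second probe set of Lpin1, a phosphatidate phosphatase, named after its values were seen, was also lower after withdrawal, by -0.82 (adjusted p = 0.0232) and -0.85 (adjusted p = 0.00695 after quantile normalization).

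Against treated islets, withdrawal islets had 27 related genes lower and 3 higher, or 51.7%, with a median of -0.38, where 43.8% of all probe sets were called, 32.6% lower and 11.2% higher, with a median of -0.19. After quantile normalization 7 were lower and 4 higher, or 19%, against 29.1% of all probe sets, and 9 genes were called in the same direction on both scales. Insig1 was lower by -1.09 (limma adjusted p = 0.000732; -0.67 after quantile normalization), Fads1 by -0.92 (-0.54), Agpat4, an acyltransferase of phosphatidate synthesis, by -0.94 (-0.69) and Mlx, the dimer partner of the carbohydrate-responsive factor ChREBP, by -0.92 (-0.33). Another tested probe set of Mlx was called as deposited alone (-0.78, limma adjusted p = 0.00182). After quantile normalization that probe set gave -0.25 (adjusted p = 0.0823). Ppargc1b was higher by 0.87 (1.10), with 6.52, 6.85 and 7.18 in treated and 7.69, 7.80 and 7.68 in withdrawal arrays, which did not overlap. Idh2 (-0.89), Hacd3 (-0.85) and Bscl2 (-0.75) were called lower as deposited but not after quantile normalization. By step, 6 of 7 elongases and desaturases and 6 of 8 supply genes were lower as deposited, and 1 of each list after quantile normalization. Of 11 glycerolipid enzymes 5 were lower and 1 higher, and then 2 and 1, and of 12 regulators 5 were lower and 1 higher, and then 2 and 2. Of 13 lipid droplet and lipolysis genes 2 were lower and 1 higher as deposited.
Srebf2, the sterol-directed relative of Srebf1, named after its values were seen, was called on its brightest probe set on the quantile-normalized scale alone. That probe set gave -0.69 for treated minus untreated and 0.88 for withdrawal minus treated, where the deposited scale gave -0.16 and 0.15. A dimmer tested probe set of Srebf2, averaging 5.10, was called in neither comparison on either scale. After quantile normalization it had the opposite signs, at 0.14 (limma adjusted p = 0.579) for treated minus untreated and -0.01 (adjusted p = 0.964) for withdrawal minus treated. Scd2, the relative of Scd, also named after its values were seen, was lower after withdrawal by -1.18 (adjusted p = 0.00398), and by -0.43 after quantile normalization (adjusted p = 0.0807) on its brightest probe set. Its other tested probe sets, of which there were 2, were not called in that comparison, at -0.31 (adjusted p = 0.0811) and 0.13 (adjusted p = 0.419) as deposited and 0.11 and 0.06 after quantile normalization.

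**Figure D5:**
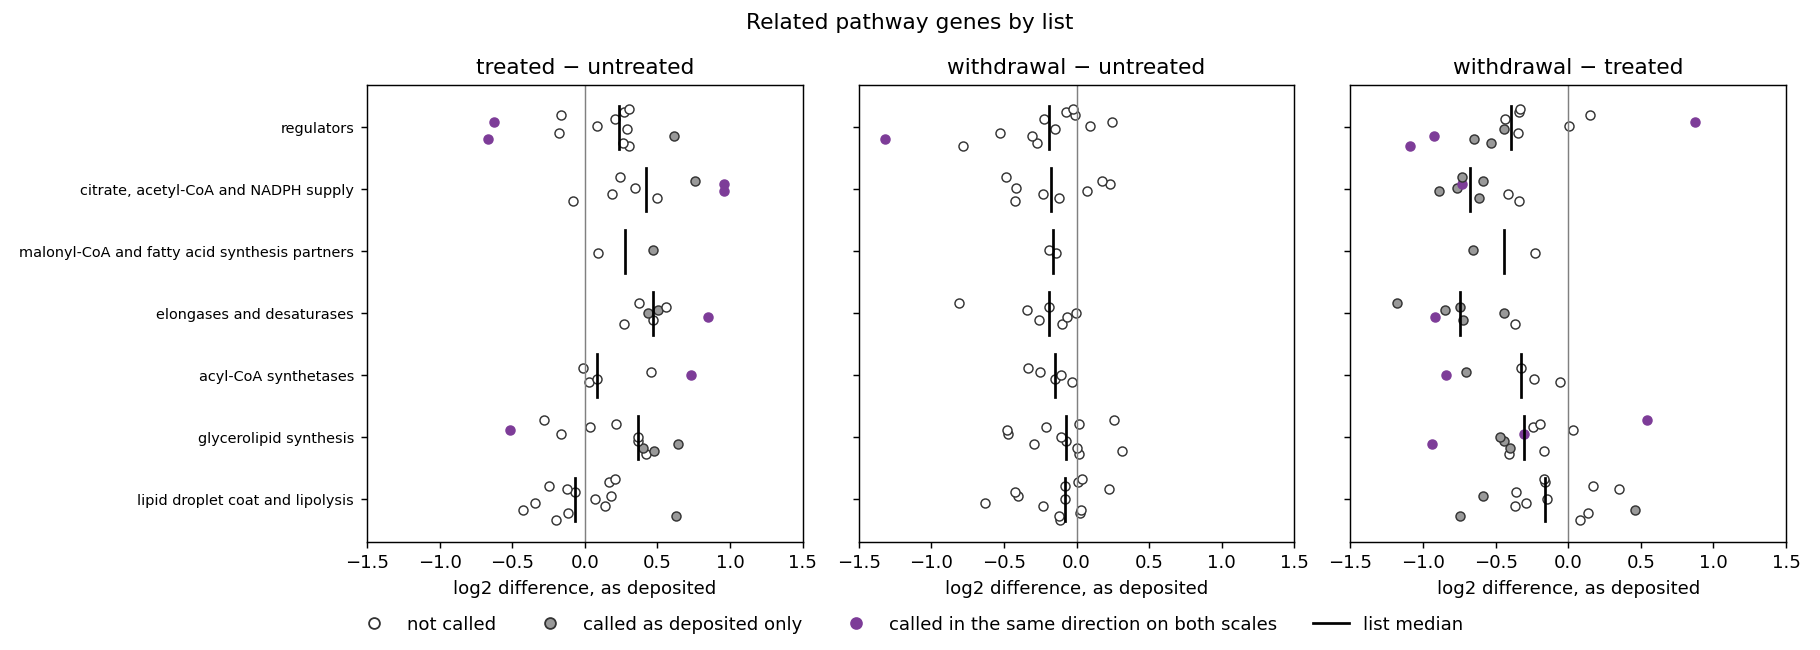
Log2 differences as deposited (horizontal axis) of the 58 tested related genes, by list, in the 3 comparisons, with open points not called as deposited, grey points called as deposited only, purple points called in the same direction on both scales and black lines for list medians. Most grey and purple points for withdrawal minus treated lie below 0 (27 of 30 called), and 9 of the points are purple.

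Across the 9 arrays, the genes whose quantile-normalized pattern was most like that of Srebf1, of 11618 compared, were Lin7b (Pearson r = 0.987), Wnt4 (0.976), Sstr3 (0.967), P4ha2 (0.967) and Gjd2 (0.966). For Fasn they were Atp2a2 (0.906), Meltf (0.904), Wdr24 (0.903), Upk3a (0.897) and Cela1 (0.885). These describe 9 arrays in 3 groups, and differences between the groups are part of each r.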

How the data were processed

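Pancreatic islet RNA was hybridised to Affymetrix rat whole-genome arrays. The authors deposited 1 value per probe set and array, taken to be on a log2 scale from its range. RMA and MAS5 are named in the submitters' processing notes, and their roles and versions are not given in the sources used here. Array medians ran from 5.74 to 5.81, and the number of arrays limits the precision. Of 31099 probe sets, 57 controls were left out. Names came from the platform annotation, with 20826 probe sets having 1 symbol, 436 several (not named) and 9780 none listed. Of the symbols, 20758 were matched to the GRCr8 table by gene number.

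The lowest 33.3% by mean were left out. Groups were compared with limma 3.58.1 (R 4.3.3; lmFit and eBayes, 9 arrays, a term per group), adjusted over 20695 probe sets, and the fit was tested on simulated data. Quantile normalization, other filters, array weights and left-out arrays were alternatives. All related genes and markers came from lists. Named related genes were, in each comparison, up to 8 called with the smallest p, or the 3 smallest where fewer than 3 were called. Genes most like Srebf1 and Fasn were the 5 with the highest Pearson r. The members and lists were chosen with earlier results of these data known. The p-values weigh group differences against the spread between arrays within groups, estimated in part from all tested probe sets. Since the rats behind an array are not given, that spread cannot be read as the spread between rats. Figures used Python 3.11.15 and matplotlib 3.10.9.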

Additional observations from a re-analysis of the deposited data

How the results depend on the processing

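Of the differences of the 9 tested genes under the other settings, left-out arrays aside, 220 kept sign and side of the threshold, 5 lost the call, 6 gained it and 12 changed sign. Quantile normalization moved the probe sets called from 5817 to 3558 (treated minus untreated), from 33 to 87 (withdrawal minus untreated) and from 9057 to 6032 (withdrawal minus treated), the related genes from 16 to 9, 1 to 3 and 30 to 11, and the lipogenic genes for withdrawal minus treated from 5 to 2. It changed the sign of Fasn (-0.027), Acly (-0.34) and Dgat2 (-0.091) for treated minus untreated, Dgat1 (0.0175) for withdrawal minus untreated, and Fasn (0.0074), Acaca (0.0933) and Me1 (0.21) for withdrawal minus treated. With array weights, withdrawal minus untreated called 3275 probe sets, 21 related genes and 3 lipogenic genes, and Elovl6 (-0.12) and Dgat2 (-0.12) changed sign for treated minus untreated. Fitting only the 6 arrays compared called 3209 probe sets and 7 related genes for treated minus untreated, and 494 probe sets, 8 related genes and 1 lipogenic gene (Acly) for withdrawal minus untreated. Without the filter on dim probe sets 0 related genes were called by limma for withdrawal minus untreated. Centring on array medians turned Srebf1 for withdrawal minus untreated to -0.0023, and the mean over probe sets turned it to -0.022 and Dgat2 for treated minus untreated to -0.060. The cause of these changes was not tested.

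Whether the replicate numbers pair the arrays was not settled. In deviations from group means, 5 of 9 same-number pairs correlated over 0.1 (-0.283 to 0.504), and different-number pairs ran from -0.485 to 0.406. Of the 9 arrays, 3 correlated best with their own number. The deviations of the 3 arrays of a group sum to 0, so this check cannot show that pairing is absent. With the replicate block, withdrawal minus untreated called 50 probe sets and 2 related genes, and the calls of the lipogenic genes were as many as without it. A pseudocount was planned only for linear values and was not run.

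Leaving out 1 array at a time called 2033 to 6319, 7 to 398 and 5587 to 9511 probe sets in the 3 comparisons (treated minus untreated, withdrawal minus untreated, withdrawal minus treated), 2 to 3, 0 to 1 and 3 to 5 lipogenic genes, and 5 to 19, 0 to 7 and 15 to 30 related genes. With quantile normalization, chosen together with left-out arrays after seeing the data, these were 1268 to 4571, 26 to 409 and 2595 to 6794 probe sets, 2 to 4, 0 to 1 and 0 to 2 lipogenic genes, and 3 to 13, 1 to 6 and 7 to 13 related genes. Over these fits on both scales together, the differences whose sign was not the same in every fit ran, for treated minus untreated, from -0.41 to 0.31 (Acly), -0.17 to 0.10 (Dgat2), -0.073 to 0.19 (Elovl6) and -0.10 to 0.42 (Fasn). For withdrawal minus untreated they ran from -0.17 to 0.062 (Dgat1), -0.27 to 0.047 (Elovl6), -0.24 to 0.074 (Fasn) and -0.28 to 0.036 (Scd). For withdrawal minus treated they ran from -0.32 to 0.25 (Acaca), -0.016 to 0.28 (Dgat2), -0.33 to 0.0054 (Elovl6), -0.45 to 0.067 (Fasn) and -0.38 to 0.30 (Me1).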
